A study of Mus musculus with 2 samples.

Results

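The genes analyzed here encode the enzymes that place, copy and remove methyl groups on DNA, together with their closest partners: Dnmt1, Uhrf1, Dnmt3a, Dnmt3b, Dnmt3l, Tet1, Tet2, Tet3, Tdg and Mbd3. They were chosen by gene symbol, and all 10 were found among the 24532 genes of the deposited mouse table. Their RNA levels were compared between mouse E14 embryonic stem cells (ESCs) and E14 cells carrying a point mutation of Sox2.

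The study compared the wild-type E14 line with E14-Sox2 TA/WT cells, labelled Sox2 T258A, in which threonine 258 of Sox2, a site of O-GlcNAc modification, is replaced by alanine in 1 allele. The mutant is a clone grown from a single cell after CRISPR/Cas9 editing with a single-stranded DNA donor. Per the study's methods, E14 cells were kept in medium with serum and leukemia inhibitory factor. The clone was isolated and usually maintained with the addition of 2i (PD0325901 and CHIR99021, inhibitors of Mek and Gsk3). The 2i was withdrawn before use, and the range of passages that the study used after its removal starts at passage 1. Genotype, clone and history of 2i culture therefore cannot be told apart. Polyadenylated RNA was sequenced from 1 library per genotype, with 60263536 reads counted in E14 and 44609228 in Sox2 T258A cells. Because there was 1 library per genotype, the differences could not be set against replicate spread and are given without p-values. The 95% intervals were computed from the read counts, by the exact Clopper-Pearson method for a single gene and by a normal approximation on the log scale for differences between gene ratios, and they cover counting error only, not the spread between cultures.

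In mammals, Dnmt3a and Dnmt3b methylate CpG sites de novo, and Dnmt3l, which has no catalytic activity, binds and stimulates them. Dnmt1 copies the pattern to the new strand after replication and is brought to hemimethylated DNA by Uhrf1. The Tet enzymes oxidize 5-methylcytosine, Tdg excises the more oxidized products so that base excision repair can restore cytosine, and Mbd3 is a subunit of the NuRD chromatin remodeling complex. Naive ESCs are known for low DNA methylation in 2i, and methylation increases as cells move toward the formative state of the early epiblast. DNA methylation itself was not measured in these libraries.

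The coding sequence around the catalytic residue shows how the methyltransferases differ. The sense strand is given 5′ to 3′ from GENCODE transcripts on GRCm38, with the codon of the catalytic cysteine in capitals.
Dnmt1, chr9:20911798-20911851, minus strand, exon 32 of 39: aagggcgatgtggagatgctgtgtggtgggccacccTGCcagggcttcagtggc
Dnmt3a, chr12:3902390-3902443, plus strand, exon 18 of 23: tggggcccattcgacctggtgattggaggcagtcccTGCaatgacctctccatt
Dnmt3b, chr2:153677180-153677233, plus strand, exon 19 of 24: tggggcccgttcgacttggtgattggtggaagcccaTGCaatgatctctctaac
Dnmt3l, chr10:78056854-78056907, plus strand, exon 10 of 13: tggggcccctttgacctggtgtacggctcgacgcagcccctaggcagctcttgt
The cysteine is residue 1229 of Dnmt1, 706 of Dnmt3a and 658 of Dnmt3b. The stretch of Dnmt3l, aligned by its start, has no capitals, because the global alignment of the proteins lacks 8 residues there, the cysteine included. Translated Dnmt3a and Dnmt3b shared 53.4% of 820 aligned residues, and Dnmt3l shared 37.1% of 407 with Dnmt3a and 36.3% of 397 with Dnmt3b.

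For the Tet genes, capitals mark the codons of the histidine and the aspartate that hold the iron of the active site.
Tet1, chr10:62814448-62814486, minus strand, exon 11 of 13: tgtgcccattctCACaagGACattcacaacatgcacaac
Tet2, chr3:133471352-133471390, minus strand, exon 10 of 12: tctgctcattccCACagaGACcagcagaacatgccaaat
Tet3, chr6:83373206-83373244, minus strand, exon 10 of 12: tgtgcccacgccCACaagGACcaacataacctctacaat
The histidine is residue 1652 of Tet1, 1303 of Tet2 and 1085 of Tet3. Over the whole proteins, identity was 34.1% (Tet1 and Tet2), 39.8% (Tet1 and Tet3) and 37.9% (Tet2 and Tet3) of aligned residues.

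Expression of the set was higher in Sox2 T258A cells for 9 of the 10 genes, and Dnmt3l was the exception. Levels are given in TPM, the read count scaled by transcript length and by the library, and differences as the ratio of TPM in Sox2 T258A over E14 cells on the log2 scale. The median log2 ratio of the 10 genes was 0.45, against 0.04 over the 13248 genes whose mean TPM reached 1. Of those 13248 genes, 53.2% were higher in the mutant. A gene was counted as past 2-fold when its TPM also reached 10 in either library, which was met by every gene of the set but Tet3. Of the 9 genes left, Dnmt3b and Tet1 were more than 2-fold higher, where 4.17% of 9094 genes were. None was more than 2-fold lower, where 4.07% were.

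**Figure D1:**
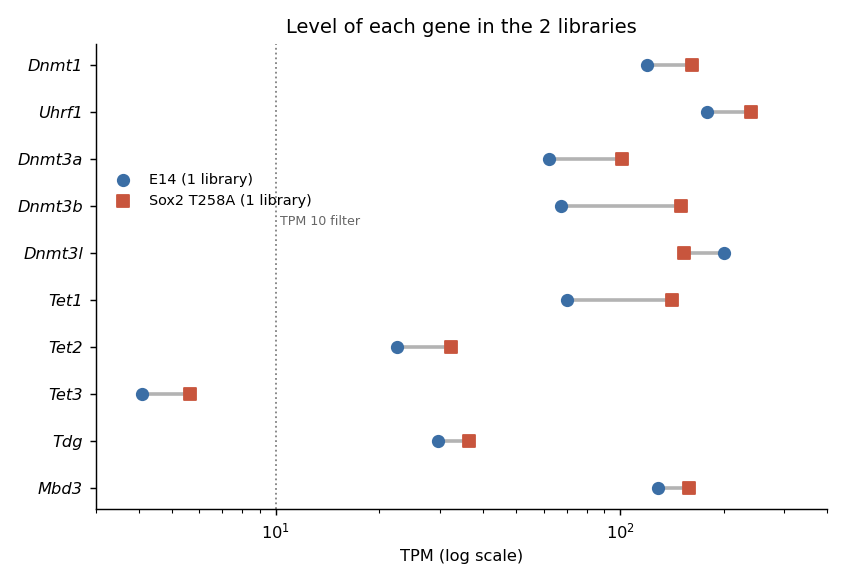
TPM of each of the 10 genes (log axis) in the E14 library (circles) and the Sox2 T258A library (squares), 1 library each, with a dotted line at TPM 10. The square lies to the right of the circle for every gene but Dnmt3l, and the lines of Dnmt3b and Tet1 span about 2-fold.

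In the TPM ratio, the maintenance enzymes were moderately higher in the mutant. Dnmt1 (chr9:20907206-20959888, minus strand) had 119.8 TPM in E14 and 161.2 TPM in Sox2 T258A cells, from 20275 and 18280 reads. Its log2 ratio was 0.43 (95% interval 0.40 to 0.46), a 1.35-fold difference. Uhrf1 (chr17:56303337-56323486, plus strand), which recruits Dnmt1, had 178.9 and 239.8 TPM from 19948 and 17920 reads, with a log2 ratio of 0.42 (0.39 to 0.45). Both genes thus had the higher value in the mutant, and by nearly the same factor. The ratio of Uhrf1 to Dnmt1 within a library, which does not depend on how libraries are scaled, was 1.49 in both, and its log2 difference of -0.01 had an interval of -0.05 to 0.04. With the trend of the ratio on transcript length removed, described with the Tet genes, this difference was 0.17. In that setting the log2 ratio itself was 0.14 for Dnmt1 and 0.30 for Uhrf1. A processed pseudogene, Gm5648, matches Uhrf1 at 98.3% over 1590 bases. It has no entry of that name among the deposited genes, so reads of the pair could be mixed.

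Partners of maintenance methylation were mostly higher too. Of 7 such genes 6 were higher and 1 was lower, none past 2-fold, with a median log2 ratio of 0.36. The highest was Dppa3 (also known as Stella), which keeps Uhrf1 off chromatin, at 6.17 TPM in E14 and 12.2 TPM in Sox2 T258A cells (log2 ratio 0.98, 0.68 to 1.29, from 159 and 211 reads). The lowest was Dmap1, a protein that binds Dnmt1, at -0.16. Dnmt1 and Uhrf1 are transcribed mainly in cycling cells, and 14 of 15 S phase genes were also higher, with a median of 0.32. Among them Ccne2, the cyclin that drives entry into S phase, was past 2-fold (1.28), and Gins2, a subunit of the replicative helicase, was the only one lower (-0.06). The part of S phase in the values of Dnmt1 and Uhrf1 was not tested.

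The de novo enzymes differed in opposite directions from their cofactor. Dnmt3b (chr2:153649411-153687730, plus strand) had 67.5 TPM in E14 and 150.4 TPM in Sox2 T258A cells, from 8888 and 13271 reads. This was a 2.23-fold difference (log2 ratio 1.16, 1.12 to 1.19) and the largest of the 10 genes. Dnmt3b is also among the genes that the study selected as putatively repressed through O-GlcNAcylation of Sox2 at T258, partly on these same libraries, so its direction is not independent evidence. The selection also used a Sox2 ChIP signal in the gene region and the response to streptozotocin, which raises O-GlcNAc, both from other data. Dnmt3a (chr12:3801559-3914443, plus strand) had 62.3 and 101.6 TPM from 17905 and 19579 reads, a 1.63-fold difference (log2 ratio 0.70, 0.67 to 0.73) that stayed under 2-fold. Dnmt3l (chr10:78042287-78063622, plus strand) had 200.2 TPM in E14 and 152.9 TPM in the mutant, from 10519 and 5384 reads, or 0.764 times the E14 level (log2 ratio -0.39, -0.44 to -0.34).

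The balance within the de novo group therefore differed between the libraries. Dnmt3l stood at 2.97 times the level of Dnmt3b in E14 and at 1.02 times in Sox2 T258A cells (log2 difference -1.54, -1.61 to -1.48). Against Dnmt3a the ratio was 3.21 in E14 and 1.51 in the mutant. Relative to the sum of Dnmt3a and Dnmt3b, Dnmt3l was at 1.54 and 0.607 (log2 difference -1.34, -1.40 to -1.29), so that the cofactor exceeded both enzymes together in E14 only. Dnmt3b and Dnmt3a were close in E14 (ratio 1.08), whereas Dnmt3b was 1.48 times Dnmt3a in the mutant. Dnmt3a and Dnmt3b together were at 129.8 TPM in E14 and 251.9 TPM in the mutant. Within the sum of the 3 active enzymes, the share of Dnmt3b was 27.0% in E14 and 36.4% in the mutant, that of Dnmt3a 25.0% and 24.6%, and that of Dnmt1 48.0% and 39.0%. These ratios and shares need no scaling between libraries, but they move with the length trend described with the Tet genes. With that trend removed, the log2 difference was -1.23 for Dnmt3l over Dnmt3b, -0.92 for Dnmt3l over the sum, 0.74 instead of 0.45 for Dnmt3b over Dnmt3a, and -0.48 instead of -1.09 for Dnmt3l over Dnmt3a.

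**Figure D2:**
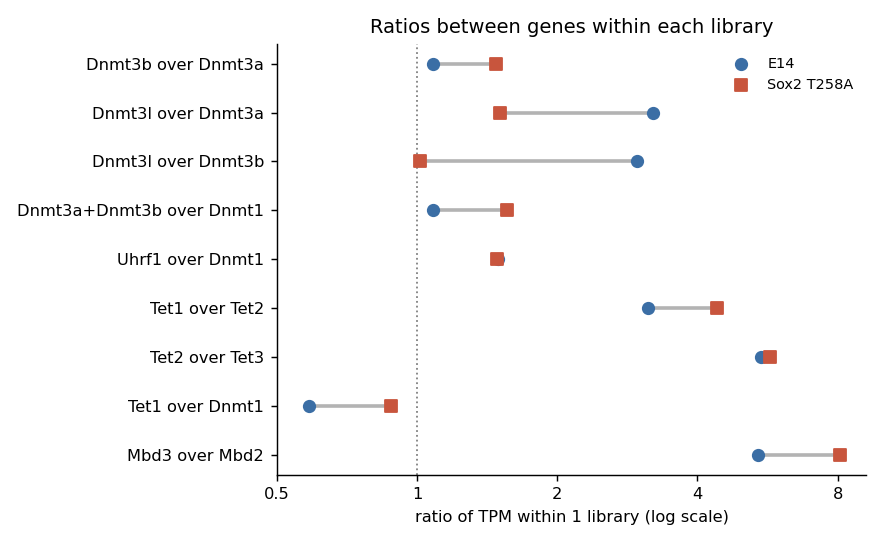
Ratio of the TPM of 2 genes, or of a sum, within 1 library (log axis) for E14 (circles) and Sox2 T258A (squares), with a dotted line at 1. Dnmt3l over Dnmt3b lay at 2.97 in E14 and 1.02 in the mutant, whereas Uhrf1 over Dnmt1 was 1.49 in both.

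Shared sequence limits some of these values, since the counting of multiply mapping reads is not stated. Dnmt3c, a rodent copy of Dnmt3b, matches it at 93.3% over 1655 bases and has no entry of that name among the deposited genes. Dnmt3l and Aire, which lie on opposite strands, share 67 exonic bases, and Aire had only 199 reads in E14 and 73 in the mutant. Dnmt3aos, antisense to Dnmt3a, had no reads in either library. Trdmt1 (Dnmt2), a relative that methylates RNA rather than DNA, was near its E14 level, at 7.67 and 6.92 TPM from 637 and 385 reads (log2 ratio -0.15, -0.33 to 0.04).

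The promoters of the genes at the ends of the range, Dnmt3b and Dnmt3l, differed in CpG content. They are shown from RefSeq on GRCm38.p6, as 250 bases before to 50 bases after an annotated start on the plus strand, with CpG dinucleotides in capitals.
Dnmt3b, chr2:153649199-153649498: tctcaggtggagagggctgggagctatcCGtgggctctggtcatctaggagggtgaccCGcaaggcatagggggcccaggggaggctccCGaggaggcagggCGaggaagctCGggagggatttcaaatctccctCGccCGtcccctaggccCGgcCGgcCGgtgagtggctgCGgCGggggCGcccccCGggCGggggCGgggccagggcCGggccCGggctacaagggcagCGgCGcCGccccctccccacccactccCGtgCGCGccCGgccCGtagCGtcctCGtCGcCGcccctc
Dnmt3l, chr10:78055085-78055384: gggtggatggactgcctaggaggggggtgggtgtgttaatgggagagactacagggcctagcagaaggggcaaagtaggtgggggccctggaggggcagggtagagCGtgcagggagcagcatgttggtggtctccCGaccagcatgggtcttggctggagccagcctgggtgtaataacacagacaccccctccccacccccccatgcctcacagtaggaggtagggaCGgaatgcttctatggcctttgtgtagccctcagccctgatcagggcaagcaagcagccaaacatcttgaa
The Dnmt3b window holds 30 CpGs. The Dnmt3l window shown belongs to the most downstream of 3 annotated starts, which lies inside the gene, and holds 3, the fewest. The windows of the other Dnmt3l starts hold 6 and 4, against a median of 7 over 32851 promoter windows. The Sox core motif was searched as ACAAAG or ACAATG on both strands. It was absent from the Dnmt3b window and from both other Dnmt3l windows, and occurred once in the Dnmt3l window shown, as CTTTGT from base 247. Of the 17 windows of the 10 genes, 2 held a match (the other belongs to Dnmt3a), and 28.6% of all windows did. Only these windows were searched, whereas the study selected Dnmt3b partly on a Sox2 ChIP signal in its gene region. Which start was used in these cells was not measured.

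Among the genes that remove methylation, Tet1 showed the largest difference. Tet1 (chr10:62804570-62887469, minus strand), the main Tet enzyme of ESCs, had 70.1 TPM in E14 and 141.7 TPM in Sox2 T258A cells, from 31106 and 42105 reads. The 2.02-fold difference (log2 ratio 1.01) was just past 2-fold, and its interval of 0.99 to 1.04 included 2-fold. Tet2 (chr3:133463677-133545136, minus strand) had 22.4 and 32.2 TPM from 6500 and 6255 reads, with a log2 ratio of 0.52 (0.47 to 0.57). Tet3 (chr6:83362373-83457208, minus strand), the Tet enzyme best known from the zygote, was the lowest of the set at 4.09 and 5.64 TPM, from 1408 and 1366 reads, with a log2 ratio of 0.46 (0.35 to 0.57). The transcript length implied for Tet3 was 11095 bases in E14 and 11659 in the mutant, so its TPM ratio also carries a different weighting of transcripts.

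Tet1 made up most of the Tet RNA in both libraries, with 72.6% of the summed TPM in E14 and 78.9% in Sox2 T258A cells. It exceeded Tet2 by 3.13 times in E14 and 4.40 times in the mutant (log2 difference 0.49, 0.44 to 0.55). The ratio of Tet2 to Tet3 was 5.48 and 5.71, with a log2 difference of 0.06 whose interval (-0.06 to 0.18) included 0. The sum of the Tet genes was 96.6 TPM in E14 and 179.5 TPM in the mutant, and that of Dnmt1, Dnmt3a and Dnmt3b was 249.6 and 413.2 TPM. Both sums were higher in the mutant. Their ratio (Tet over Dnmt) was 0.387 in E14 and 0.434 in the mutant, a log2 difference of 0.17 (0.14 to 0.19). The direction of this difference was not stable, since it was -0.02 with the length trend removed and -0.16 with the length and GC trends removed.

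The ratio between the libraries varied with transcript length over all genes, and the Tet genes and Dnmt3a have the longest transcripts of the set. When genes with a mean TPM of 1 or more were split into 5 equal groups by length, the median log2 ratio from the shortest to the longest group was -0.19, -0.07, 0.01, 0.13 and 0.35. Tet1, with an implied length of 14300 bases, lay in the longest of 20 length bins, where the median was 0.49 and 13.7% of the 416 genes that met the TPM filter were more than 2-fold higher. Among the ratios of that bin, Tet1 was at percentile 87.9, Dnmt3a at 68.9, Tet2 at 52.8 and Tet3 at 47.1. Dnmt3b, with 4247 bases, was at percentile 93.2 of its own bin, where the median was 0.20 and 4.09% of 464 genes were past 2-fold. After subtraction of the bin medians the log2 ratio was 0.96 for Dnmt3b, 0.52 for Tet1, 0.21 for Dnmt3a, 0.03 for Tet2 and -0.03 for Tet3, so that no gene of the set remained past 2-fold and Tet3 turned slightly lower. Dnmt3l, with 1694 bases, kept a lower value at -0.27, and Mbd3, the shortest of the set, had a larger difference than before, at 0.42. The cause of this trend was not tested.

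**Figure D3:**
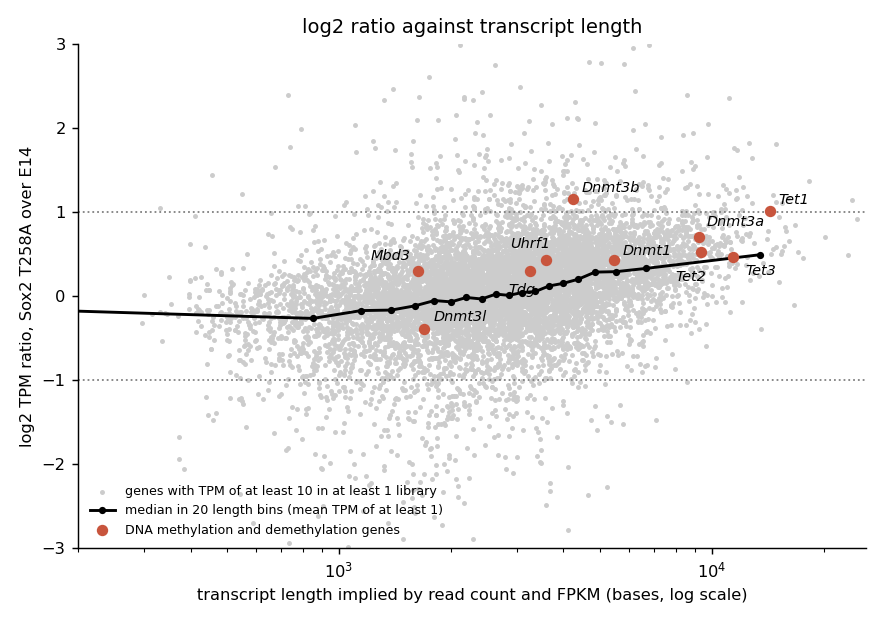
log2 TPM ratio (Sox2 T258A over E14) against the transcript length implied by read count and FPKM (log axis) for all genes that met the TPM filter (grey; points beyond the axis limits are not drawn), with medians in 20 length bins (black) and the 10 genes (red). Dnmt3b stands 0.96 above the median of its bin and Tet1 0.52, whereas Tet2 and Tet3 lie near the line.

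GC content followed the ratio in the opposite sense, with a median of 0.25 in the lowest of 5 equal groups by GC and -0.13 in the highest. Tet1 transcripts are 43.6% GC and those of Dnmt3b 53.3%. With this trend removed the log2 ratio was 0.78 for Tet1 and 1.19 for Dnmt3b, and with both trends removed it was 0.43 and 1.03. In that last setting Tet2 turned lower at -0.03, and Tet3 was at 0.04.

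A change from TPM to CPM or FPKM moved the genes of the set by nearly the same amount. The exception was Tet3, which moved less in CPM (0.46 to 0.39). When counts were scaled by the library total (CPM) or the deposited FPKM values were used, the median of all genes was -0.10 instead of 0.04, a shift of about -0.14. In CPM, Dnmt3b was at 1.01, Tet1 at 0.87 and Dnmt3l at -0.53. The direction of each of the 10 genes was the same under TPM, CPM and FPKM. Over all genes, the calls past 2-fold were split evenly in TPM (379 higher and 370 lower) but 280 to 496 in CPM and 278 to 496 in FPKM.

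**Figure D4:**
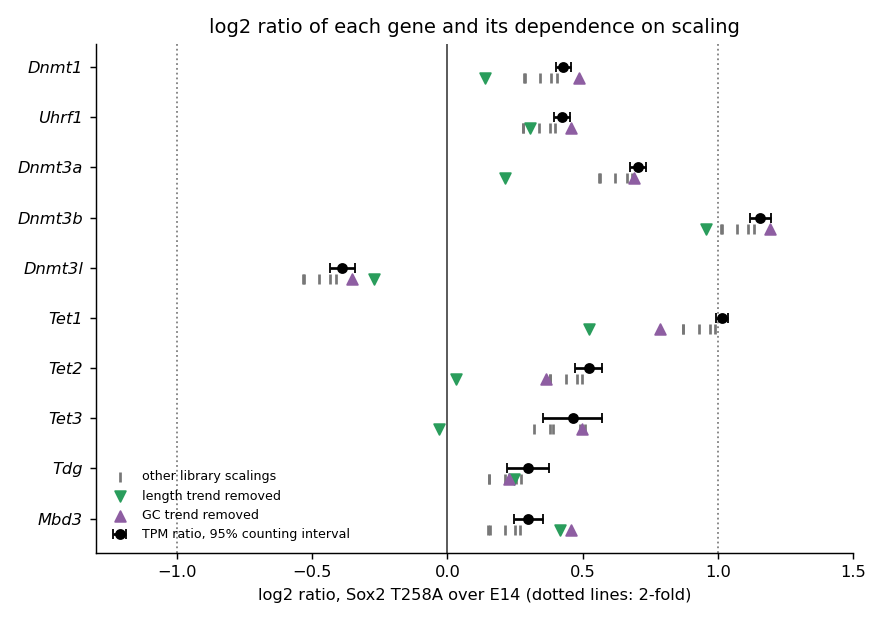
log2 ratio of each gene (black points, with 95% counting intervals), with its values under 5 other library scalings (grey bars) and after removal of the trend on transcript length (green) or GC content (purple). Dotted lines mark 2-fold. Dnmt3l is on the left of 0 and Dnmt3b the farthest to the right in every setting drawn, and Tet1 reaches the 2-fold line in the TPM ratio only.

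In the TPM ratio, Tdg and Mbd3 showed the smallest differences. With the length trend removed, Tet2 (0.03) and Tet3 (-0.03) differed least, and Tdg was at 0.24 and Mbd3 at 0.42. With the length and GC trends removed, Tdg was at 0.25 and Mbd3 at 0.52. Tdg (chr10:82629814-82650799, plus strand), the glycosylase that excises oxidized methylcytosine, had 29.5 TPM in E14 and 36.3 TPM in Sox2 T258A cells from 2989 and 2462 reads, with a log2 ratio of 0.30 (0.22 to 0.38). The sequence of Tdg is shared with processed pseudogenes. The longest match, Tdg-ps (98.7% over 2968 bases), has no entry of that name among the deposited genes, while Gm9855 had no reads. Glt8d2, on the opposite strand, shares a 367-base exon stretch with Tdg and had 34 and 13 reads. Mbd3 (chr10:80392539-80399531, minus strand) had 128.9 and 158.6 TPM from 6508 and 5348 reads, with a log2 ratio of 0.30 (0.25 to 0.35). Unlike Mbd3, its NuRD alternative Mbd2, which binds methylated CpG, was lower, at 23.9 TPM in E14 and 19.6 TPM in the mutant. The ratio of Mbd3 to Mbd2 was 5.40 in E14 and 8.09 in the mutant (log2 difference 0.58, 0.44 to 0.72).

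In E14 the order of levels from the highest was Dnmt3l, Uhrf1, Mbd3, Dnmt1, Tet1, Dnmt3b, Dnmt3a, Tdg, Tet2 and Tet3, and every pair of neighbours differed beyond counting error. In Sox2 T258A cells Uhrf1 was the highest. Dnmt1, Mbd3, Dnmt3l and Dnmt3b followed between 150.4 and 161.2 TPM, and no neighbours among these 4 could be ordered within counting error. Tet1, Dnmt3a, Tdg, Tet2 and Tet3 came next, each apart from its neighbour. Dnmt3l thus stood first in E14 and within this group of 4 in the mutant, and Tdg, Tet2 and Tet3 kept the last 3 places.

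Other genes of the pathway were counted from lists of known partners. The ratios and medians of all lists are given without removal of the length trend, which therefore also bears on them. Of 10 genes that target or restrict DNA methylation, 8 were higher and 2 lower (median log2 ratio 0.37), none past 2-fold. The highest was Setd2 (0.99), which writes the H3K36 trimethylation that Dnmt3b reads, at 25.0 TPM in E14 and 49.8 TPM in the mutant. The lowest was Prdm14 (-0.58), a repressor of Dnmt3b in naive ESCs, at 9.40 and 6.30 TPM from 768 and 345 reads. Of the Tet partners and suppliers of their cofactor, 4 of 5 were higher with a median of 0.28. Cxxc5, a CXXC protein that binds Tet2, was past 2-fold at 36.0 and 80.6 TPM (log2 ratio 1.16, 1.09 to 1.23), and Idh2, which makes 2-oxoglutarate in mitochondria, was the lowest at -0.16.

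Base excision repair genes were mixed. Of 12, which include other glycosylases as well as the enzymes downstream of Tdg, 4 were higher and 8 lower, none past 2-fold, with a median of -0.14. Apex1, the abasic site endonuclease, was the highest at 0.70, and Smug1, a uracil glycosylase, the lowest at -0.77. Readers of methylated CpG were mixed, with 5 of 8 higher and a median of 0.16, from Zbtb38 at 0.79 to Mbd6, a related protein of the MBD family, at -0.37. NuRD subunits other than Mbd3 were higher in 10 of 14 (median 0.25), from Gatad2b at 0.72 to the remodeler Chd5 at -0.54. In the cycle that supplies S-adenosylmethionine, the methyl donor, 3 of 6 genes were higher (median 0.13). Mat2a, which synthesizes the donor, was past 2-fold, at 140.9 TPM in E14 and 311.5 TPM in the mutant (1.14, 1.11 to 1.18), and Ahcyl1 was the lowest at -0.08.

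Germline genes that promoter methylation is known to silence in somatic cells had one direction. Of the 15 with a mean TPM of 1 or more, all 15 were lower in Sox2 T258A cells, with a median log2 ratio of -1.45. Over all genes with such a mean TPM, 53.2% were higher and the median was 0.04. The list was chosen with earlier results of these data known, so its direction is not independent evidence. Of the 9 that met the TPM filter, 7 were more than 2-fold lower, where 4.07% of 9094 genes were. The 7 were Tuba3a (-2.31), Mael (-2.00), Taf7l (-1.89), Sohlh2 (-1.45), Sycp3 (-1.41), Hormad1 (-1.22) and Rpl10l (-1.21). Mael, a piRNA pathway factor, had 66.5 TPM in E14 and 16.7 TPM in the mutant, and Sycp3, a protein of the synaptonemal complex, had 85.4 and 32.2 TPM. The range ran from Tex101 at -2.75, from 296 and 30 reads, to the germ cell helicase Ddx4 at -0.30. No methylation of these promoters was measured, and its part in these values was not tested.

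**Figure D5:**
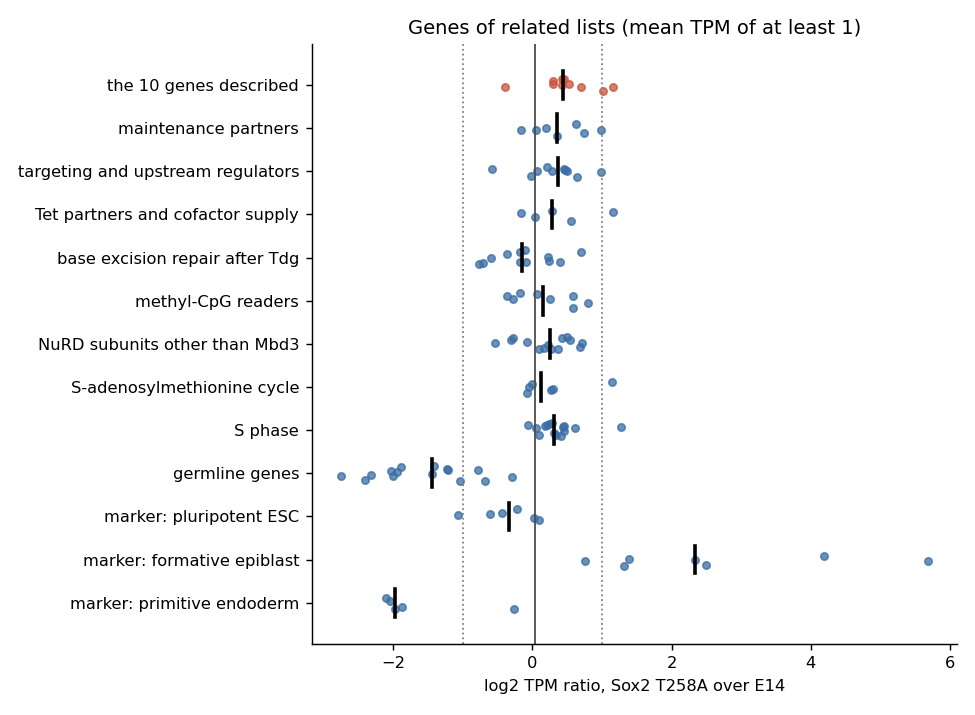
log2 TPM ratio (Sox2 T258A over E14) of each gene whose mean TPM reached 1, in the 10 genes (red) and in related lists (blue), spread vertically for legibility, with the median of each list as a black bar. The solid line is the median of all genes (0.04) and dotted lines mark 2-fold. The 15 germline genes lie to the left of 0 and the 7 formative epiblast markers shown to the right.

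Some markers of the cell state also differed between the libraries. With 1 library per genotype, no likeness of pattern between these markers and the set can be measured. Pou5f1, the factor that defines pluripotent cells, was high in both libraries, at 1725 TPM in E14 and 1759 TPM in the mutant, whereas Nanog was lower at 526.9 and 251.3 TPM (-1.07) and Sox2 at 372.5 and 274.2 TPM (-0.44). The Sox2 level does not check the genotype label, because a point mutation leaves the transcript countable. Summed TPM of the 6 pluripotency markers was 3805 in E14 and 3326 in Sox2 T258A cells, with 2 of 6 higher, from Nanog to Esrrb (0.10). The 7 formative epiblast markers reported here were higher, with summed TPM of 39.9 and 134.9. Of the 5 that met the TPM filter, 4 were more than 2-fold higher, where 4.17% of 9094 genes were. The 4 were Pou3f1 (2.49), Otx2 (2.33), Sall2 (1.39) and Sox4 (1.31). Fgf5 was the highest at 5.69, from 11 and 386 reads, and Zic2 the lowest at 0.76. Of 6 primitive endoderm markers, the 5 whose mean TPM reached 1 were lower. The summed TPM of all 6 was 43.7 in E14 and 16.4 in the mutant. Gata4 (-1.98) alone met the TPM filter and was past 2-fold. Sox17 (-2.09), Pdgfra (-2.04) and Gata6 (-1.88) were also more than 2-fold lower but did not meet the filter. Dab2 differed least (-0.27). The mutant library thus held more RNA of formative markers and less of primitive endoderm markers where Dnmt3b, Dnmt3a and Tet1 were higher. The part of cell state in their values was not tested, and in bulk RNA fewer cells of a type and less RNA per cell cannot be told apart.

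Markers of other cells mostly stayed under the TPM filter, which 1 of 7 fibroblast and 2 of 6 trophoblast markers met. Of the fibroblast markers Dcn and Postn had no reads, and the summed TPM of 7 markers was 49.8 in E14 and 19.5 in the mutant. Most of it was Thy1 (40.1 and 11.4 TPM, -1.81), which ESCs can also express, and Pdgfrb was also lower (6.75 and 2.85 TPM). The collagen genes were higher at low levels. Col3a1 had 0.0799 and 1.28 TPM from 15 and 151 reads, Col1a2 had 0.259 and 0.985 TPM from 43 and 109 reads, and Col1a1 had 2.66 and 2.95 TPM. The summed TPM of the trophoblast markers was 63.1 and 35.9. Elf5 had no reads, and Tfap2c (50.9 and 16.1 TPM, -1.67) and Krt7 (8.84 and 4.03 TPM) were lower. Cdx2 was higher, at 0.474 and 12.2 TPM from 32 and 554 reads (4.69). Hand1 (2.59 and 2.90 TPM) and Gata3 (0.322 and 0.733 TPM) were higher at low levels.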

How the data were processed

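The comparison used 1 polyA RNA-seq library of E14 ESCs and 1 of Sox2 T258A ESCs, grouped by their titles. The authors deposited read counts (whole numbers, not normalized), FPKM values (scaled per kilobase and to library size by the authors) and TPM values (scaled by the authors to a common library sum) for 24532 genes on mm10. The submitters' processing notes list bcl2fastq 2.20.0, Trimmomatic, HISAT2 2.1.0 and StringTie 2.1.3b, with the builds hg19 and mm10. Handling of strand and of multiply mapping reads is not given in the sources used here.

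Following the study's methods, genes with TPM of 10 or more in either library and a ratio past 2-fold were counted. The counts obtained over all genes differ from those that the study reports for these cells, and the reason was not tested. No pseudocount was used. Ratios of a gene between libraries, and of neighbouring genes within a library, carry Clopper-Pearson intervals at 95%, transferred from counts to TPM. Differences between gene ratios carry normal-approximation intervals from the sum of inverse counts. List medians used genes whose mean TPM reached 1. Transcript length was derived from deposited counts and FPKM, and GC content was matched for 24301 genes from GENCODE M21. Copies were searched with BLAST+ 2.17.0 (at least 90% identity over 200 bases). Protein identity came from translated GENCODE transcripts. Promoters came from RefSeq.

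Members and lists were chosen with earlier results of these data known. A formative epiblast marker was left out of its list after the results had been seen and is not reported here. Named genes were the 10 members, Dnmt relatives, Sox2, and in every other list the genes past 2-fold and those with the highest and lowest ratio. Mbd2, Pou5f1, Gata6, Pdgfra, Pdgfrb, Col3a1, Col1a2, Krt7, Hand1, Gata3 and the marker genes without reads were named after their values were seen. Alternatives were other filters, pseudocounts, thresholds and scalings (edgeR 4.0.16, DESeq2 1.42.0) and removal of trends on length and GC content. Their joint removal, and both removals for gene ratios, were added after seeing the data.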

Additional observations from a re-analysis of the deposited data

How the results depend on the processing

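With 1 library per genotype no replicate could be left out, and depth limited the precision of Tet3 most. The number of genes of the set past 2-fold higher, 2 in the TPM ratio, was 1 (Dnmt3b) with TMM, median-of-ratios size factors, CPM, centring on the median, the FPKM ratio, removal of the GC trend, joint removal of the length and GC trends, or an interval wholly past 2-fold. It was 0 with the length trend removed or at 3-fold, and 3 (Dnmt3a added) at 1.5-fold. None was past the threshold in the lower direction in any setting. The median log2 ratio of the set, 0.45, was 0.33 in CPM, 0.36 after centring, 0.30 in FPKM, 0.23 without the length trend and 0.23 without both trends. Dnmt3b was the highest and Dnmt3l the lowest in all settings run. Over all genes, 379 were higher and 370 lower past 2-fold. These counts were 886 and 1366 at TPM of at least 1, 1339 and 2019 without a filter, 1291 and 955 at 1.5-fold, and 104 and 136 at 3-fold. The lower count was 597 at TPM of at least 5 and 212 at 20.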
